A study of Mus musculus with 2 samples.

Results

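Long-range contacts between stretches of chromosome 1 that hold no protein-coding gene were taken from a capture Hi-C map of the En1 locus in mouse limb buds. Capture Hi-C ligates and sequences DNA ends that lie near each other in fixed nuclei, after hybridisation probes have enriched the library for the locus of interest. The members were pairs of 10 kb bins at least 1 Mb apart whose ends lay in different stretches of a fixed set of 4, with bins under 25% of the median raw total left out. They numbered 9945 of the 113050 bin pairs of the map, and of 51379 pairs of well-covered bins at 1 Mb or more. The stretches were set by position and not by their contact values, though with earlier results of these data known.

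The map came from fore- and hindlimbs of wild-type embryos at stage E10.5, cut with DpnII. The labels gave 2 samples, both titled as replicate 2 and both of the genotype wild type, with no mutant, treated or control group, and no strain or number of embryos was given in the sources used here. Whether they came from separate embryos or are libraries of 1 biological replicate was not given in the sources used here. Both samples were merged into 1 deposited map, so each value is the authors' pooled one, without an SD or n. Intervals are 95% intervals for counting error only, no difference between embryos can be seen, and a mixture of all limb cell types and of fore- and hindlimbs was measured.

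A contact signal is read against distance, because DNA positions meet less often the farther apart they lie on the chromosome. In mammalian nuclei, gene-rich active chromatin and gene-poor inactive chromatin are known to segregate, so that like stretches tend to meet over long distances. At shorter range, loops stopped at bound CTCF, a zinc finger protein, set up domains whose borders reduce contacts. Gene-poor stretches beside developmental genes often carry enhancers, and En1, a homeobox transcription factor that patterns the ventral limb ectoderm, lies at the edge of such a stretch.

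The 4 stretches are named here by their neighbouring genes, on the mm9 build with GENCODE M1 genes. The first, chr1:120590001-120720000, lay between Tcfcp2l1, a transcription factor gene of pluripotent and epithelial cells, and Gli2, a transcriptional effector of Hedgehog signalling. The next, chr1:120960001-121310000, lay between Gli2 and Inhbb, which encodes the activin beta B subunit. The third, chr1:122510001-123060000, began 4.1 kb above En1 and ended 140.9 kb below Insig2, a regulator of sterol synthesis. The last, chr1:123480001-124400000, began 15.4 kb above Ddx18, an RNA helicase gene, and ran to the upper end of the map, 828.7 kb below Dpp10.

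The annotation bore out the absence of protein-coding genes, with 0 overlapping any stretch, but the stretches were not free of all annotated genes. The En1–Insig2 stretch overlapped the lincRNA gene B230209K01Rik (ENSMUSG00000086664.2, plus strand, chr1:122983982-123017533). The stretch above Ddx18 overlapped the pseudogene Gm15394 (ENSMUSG00000083584.1, minus strand, chr1:123865794-123867101). The stretches held 13, 35, 55 and 92 bins in chromosomal order, and all were well covered except 6 bins above Ddx18.

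Because CTCF sites often mark the ends of long contacts, the stretches were searched on both strands for the core CTCF motif of 14 bases. Exact matches were found in 14 of 419 well-covered bins (3.34%), of which 4 lay in the stretches. The sequences below are these 4, followed by the matches with 1 mismatch in bins of member pairs called above expected and in the bin 124330001 to 124340000, the second highest above Ddx18. Each is given 5′ to 3′ on the strand of the match from the NCBIM37 genome, with the motif in capitals and 8 flanking bases on either side.
Tcfcp2l1–Gli2, chr1:120656330-120656359, minus strand: ttgtcttgCCAGCAGGTGGCAGtagatggc
Tcfcp2l1–Gli2, chr1:120669068-120669097, minus strand: tgtaattaCCAGCAGAGGGCGCcggagcac
Gli2–Inhbb, chr1:120980415-120980444, minus strand: aaattacaCCACCAGAGGGCAGaagaaaac
Above Ddx18, chr1:123700103-123700132, plus strand: caaaaagaCCAGCAGAGGGCACcagatttc
Tcfcp2l1–Gli2, 1 mismatch, chr1:120627718-120627747, minus strand: cccagagtCCTGTAGATGGCACgtgctcac
Tcfcp2l1–Gli2, 1 mismatch, chr1:120718810-120718839, minus strand: tgtagaagCCAGTAGAGGGCATccaatccc
Above Ddx18, 1 mismatch, chr1:124336127-124336156, plus strand: tgaagataCCAGAAGAGGGCAGtagatgcc
Above Ddx18, 1 mismatch, chr1:124336148-124336177, plus strand: gtagatgcCCAGGAGAGGGCAGtagatgcc

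A match is a stretch of letters and not a measured binding site. Exact matches were present in 2.12% of the well-covered bins in the stretches and in 4.35% of the 230 well-covered bins outside them. With up to 1 mismatch the shares were 16.9% and 25.2%, and 21.5% over all 419 bins. The En1–Insig2 stretch held no exact match and 11 matches with 1 mismatch.

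The map held 6484654 read pairs, of which 341378 (5.26%) joined well-covered bins at 1 Mb or more. Members made up 19.4% of those bin pairs and 14.0% of their read pairs. The median bin total was 28148 read pairs in the Tcfcp2l1–Gli2 stretch, 31795 in the Gli2–Inhbb stretch, 29268 in the En1–Insig2 stretch and 15450.5 in the well-covered bins above Ddx18, against 25408 outside the stretches. A single member bin pair had a median of 4 read pairs and at most 28, so the results rest mainly on sums over many bin pairs.

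Members met less often than pairs of bins at the same distance did on average. Their summed balanced (KR) signal was 0.733 of that expected from distance (0.726 to 0.740, 47783 read pairs). The expected value of a pair was the mean KR signal of all well-covered pairs at its distance, so that the mean over all far pairs is 1 by construction. Pairs of 1 stretch bin with 1 bin outside the stretches reached 0.892 (0.887 to 0.897, 27718 pairs), and pairs of bins both outside reached 1.32 (1.31 to 1.33, 13716 pairs). The member value was thus 0.554 times (0.548 to 0.561) that of pairs outside and 0.822 times (0.812 to 0.831) that of pairs with 1 end outside, differences larger than the counting error. Summed over all distances, far contacts were therefore lowest between gene-free stretches and highest between bins that both lay outside them. From 1.5 to 2.25 Mb, however, members lay above pairs with 1 end outside, and in the other bands below them. The intervals overlapped at 1.5 to 1.75, 2 to 2.25, 2.25 to 2.5, 3 to 3.25 and 3.75 to 4 Mb. At 1.75 to 2 Mb the values were 0.954 (0.927 to 0.980) and 0.883 (0.867 to 0.898). Relative to pairs with 1 end outside, Tcfcp2l1–Gli2 with En1–Insig2 had 1.13 (1.09 to 1.17). Gli2–Inhbb with En1–Insig2 had 0.994 (0.977 to 1.01), and the pairs with the stretch above Ddx18 had 0.723 to 0.827.

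Outside the stretches, bins with and without a gene both met above the average level. Of the 230 outside bins, 79 overlapped no protein-coding gene, and pairs of these had an observed/expected value of 1.25 (1.22 to 1.27). Pairs of outside bins that both overlapped a gene had 1.35 (1.34 to 1.36). Stretch bins had a value of 0.931 with outside bins that lack a gene and 0.868 with outside bins that overlap one.

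The 5 stretch pairs with members differed among themselves by more than the counting error, apart from 1 neighbouring pair in the order. No member joined the Tcfcp2l1–Gli2 and Gli2–Inhbb stretches, whose farthest bins are 710 kb apart. The Tcfcp2l1–Gli2 and En1–Insig2 stretches met at the average level, with an observed/expected value of 1.01 (0.975 to 1.04) from 715 bin pairs, 3944 read pairs and distances of 1800 to 2460 kb. The Gli2–Inhbb and En1–Insig2 stretches followed at 0.887 (0.872 to 0.902) from 1925 bin pairs and 15922 read pairs at 1210 to 2090 kb. On raw counts with an expected value from distance alone, without balancing, this pair turned to 1.11. With 50 kb trimmed from each stretch edge the former pair fell to 0.855, below the 0.914 of the latter. Of the 130 kb between Tcfcp2l1 and Gli2, this trim leaves only 120640001 to 120670000. That part includes the lowest bin of the stretch, 120660001 to 120670000, at 0.587.

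All 3 pairs with the stretch above Ddx18 lay lower. The Tcfcp2l1–Gli2 stretch had 0.738 with it (0.702 to 0.774, 1118 bin pairs, 1798 read pairs, 2770 to 3800 kb), and the Gli2–Inhbb stretch had 0.728 (0.709 to 0.747, 3010 bin pairs, 6426 read pairs, 2180 to 3430 kb). These are the neighbours in the order whose intervals overlapped. With an expected signal from medians per distance, however, not all 3 lay lower. Tcfcp2l1–Gli2 with the stretch above Ddx18 was then 0.974, above the 0.962 of Gli2–Inhbb with En1–Insig2. The lowest value was that between the En1–Insig2 stretch and the stretch above Ddx18, at 0.645 (0.635 to 0.655, 3177 bin pairs, 19693 read pairs). These are neighbouring gene-free stretches, separated by the genes Insig2, Ccdc93, Htr5b and Ddx18, and their members lay 1000 to 1880 kb apart. It was not the lowest under 4 of the alternatives: with the expected signal from all bins it was 0.688 against 0.580 for Tcfcp2l1–Gli2 with that stretch, with 50 kb trimmed from each stretch edge 0.620 against 0.602, at 1.5 Mb or more it was 0.851, and with an expected signal from pairs of outside bins only it was 0.487, above the 0.384 of Tcfcp2l1–Gli2 and the 0.458 of Gli2–Inhbb with that stretch. The trimmed value of 0.602 rests on the part of Tcfcp2l1–Gli2 from 120640001 to 120670000 alone. The stretch with the lowest values also had the lowest GC content, a median of 40.3% per bin, and the lowest bin totals, and the part of either in the result was not tested.

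**Figure D1:**
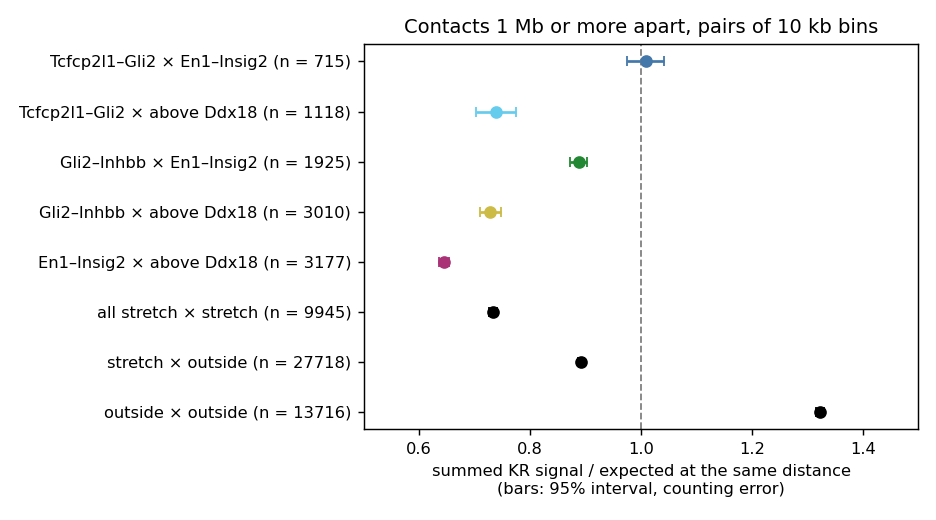
Summed KR signal over the signal expected at the same distance (horizontal axis) for the 5 stretch pairs, all members, pairs with 1 end outside the stretches and pairs with both ends outside; bars are 95% intervals for counting error and n is the number of 10 kb bin pairs. The stretch pairs run from 0.645 to 1.01, and pairs with both ends outside stand at 1.32.

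A stretch that met the other stretches rarely also met the rest of the map rarely, but less so. With bins outside the stretches, the Tcfcp2l1–Gli2 stretch had an observed/expected value of 1.20 (1.18 to 1.22), the Gli2–Inhbb stretch 0.982 (0.970 to 0.994), the En1–Insig2 stretch 0.879 (0.870 to 0.888) and the stretch above Ddx18 0.823 (0.815 to 0.830). With the other stretches the same 4 had 0.883, 0.823, 0.733 and 0.667. Bin by bin, 179 of 189 had a lower value with the other stretches than with outside bins. The values with the other stretches and with outside bins had a Pearson correlation of 0.810 over these 189 bins, which share a library and, for each bin, its balancing factor in both values. Within the stretches it was 0.893, 0.467, 0.725 and 0.867 in chromosomal order.

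**Figure D2:**
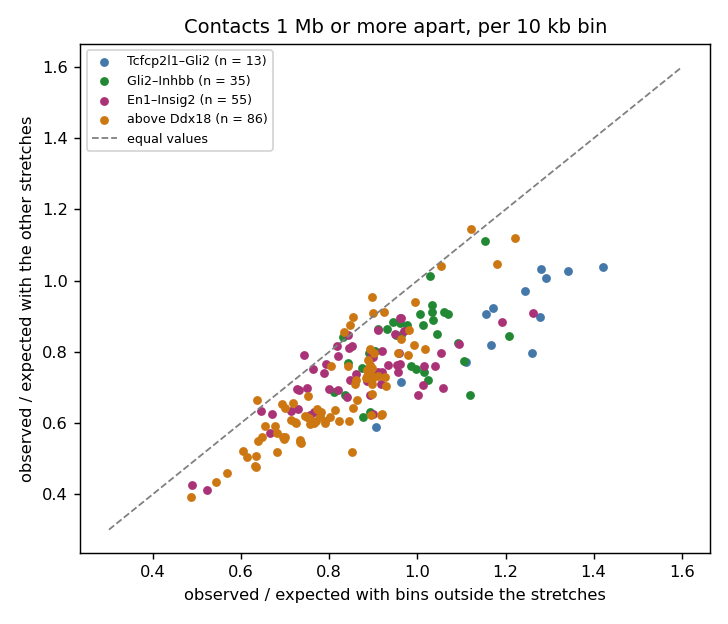
Each point is 1 well-covered 10 kb bin of a stretch, with its summed observed/expected value at 1 Mb or more with bins outside the stretches (horizontal) and with bins of the other stretches (vertical); the dashed line marks equal values. Of 189 bins, 179 lie below the line.

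Contacts between the stretches fell less with distance than other contacts did over the first megabase of the range. Between the En1–Insig2 stretch and the stretch above Ddx18, the mean KR signal per bin pair was 6.90 at 1 to 1.25 Mb, 6.11 at 1.25 to 1.5 Mb, 5.67 at 1.5 to 1.75 Mb and 5.32 at 1.75 to 2 Mb. From the first to the last of these bands it fell 1.30-fold (1.17 to 1.44). Pairs with 1 end outside the stretches fell 2.32-fold (2.27 to 2.36) over the same bands, and pairs with both ends outside fell 2.64-fold (2.59 to 2.70), from 17.2 to 6.50. The decay between these stretches was thus shallower than outside them by more than the counting error. Their last band held 95 bin pairs and 449 read pairs. At those distances only the part of En1–Insig2 near En1 is paired with the upper part of the stretch above Ddx18, whose last 70 kb had low coverage. Distance, position and coverage move together here, and the part of each cannot be told apart. Distances within the last band differed slightly, since the mean expected signal there was 5.73 for these stretches and 5.34 for pairs with both ends outside, while in the first band both were 12.4.

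As a result the shortfall between the En1–Insig2 stretch and the stretch above Ddx18 was deepest at their shortest distances. The observed/expected value between the En1–Insig2 stretch and the stretch above Ddx18 was 0.555 (0.542 to 0.568) at 1 to 1.25 Mb, 0.689 at 1.25 to 1.5 Mb, 0.841 at 1.5 to 1.75 Mb and 0.928 (0.836 to 1.02) at 1.75 to 2 Mb. Pairs of the same stretches on either side of the 1 Mb limit hardly differed, with 0.534 (0.509 to 0.560) at 950 to 1000 kb and 0.515 (0.491 to 0.540) at 1000 to 1050 kb. Of the bins on either side of the coverage limit of 5594 read pairs, the highest bin left out had 5386 and the lowest kept had 5954, both above Ddx18.

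The Gli2–Inhbb and En1–Insig2 stretches had a similar course, with a mean KR signal of 6.72 at 1.25 to 1.5 Mb and 5.34 at 1.75 to 2 Mb, a 1.26-fold fall (1.20 to 1.32). Pairs with both ends outside fell 1.73-fold (1.70 to 1.77) over those bands. At 1.75 to 2 Mb, where 3 stretch pairs have members, the mean KR signals were 4.33 between Tcfcp2l1–Gli2 and En1–Insig2, 5.34 between Gli2–Inhbb and En1–Insig2 and 5.32 between En1–Insig2 and the stretch above Ddx18. The distances within that band were not the same, as the mean expected signals of 5.01, 5.42 and 5.73 show. The observed/expected values, which take this into account, were 0.865 (0.814 to 0.917), 0.984 (0.952 to 1.02) and 0.928 (0.836 to 1.02), against 0.883 (0.867 to 0.898) for pairs with 1 end outside. Only the value between Gli2–Inhbb and En1–Insig2 had an interval apart from that of pairs with 1 end outside.

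Between Tcfcp2l1–Gli2 and En1–Insig2 the mean KR signal hardly fell with distance, from 4.33 at 1.75 to 2 Mb to 4.10 at 2 to 2.25 Mb and 4.11 at 2.25 to 2.5 Mb. The observed/expected value therefore rose over these bands, from 0.865 (0.814 to 0.917) to 1.01 (0.962 to 1.07) and 1.18 (1.10 to 1.25). Its average level over the whole range thus held a shortfall at the nearer and an excess at the farther distances.

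Beyond 2.25 Mb the comparison with the stretch above Ddx18 rested on fewer read pairs. Between the Gli2–Inhbb stretch and the stretch above Ddx18 the mean KR signal was 2.77 at 2.25 to 2.5 Mb and 1.80 at 3 to 3.25 Mb, a 1.54-fold fall (1.42 to 1.67). Pairs with both ends outside rose there, from 4.48 to 5.69, and their observed/expected value reached 2.19 at 3 to 3.25 Mb. Since the mean over all pairs at a distance is 1, such a rise lowers the values of all other pairs at that distance. Members made up 37.7% of the bin pairs in that band. The observed/expected value of Gli2–Inhbb with the stretch above Ddx18 was 0.823 (0.776 to 0.871) at 2.25 to 2.5 Mb. It was 0.671 (0.636 to 0.706) at 2.75 to 3 Mb and 0.939 (0.823 to 1.05) at 3.25 to 3.5 Mb. For Tcfcp2l1–Gli2 with that stretch it was 0.810 at 2.75 to 3 Mb, 0.642 at 3 to 3.25 Mb and 0.887 at 3.5 to 3.75 Mb. In these stretch pairs the shortfall was thus not deepest at the shortest distances.

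**Figure D3:**
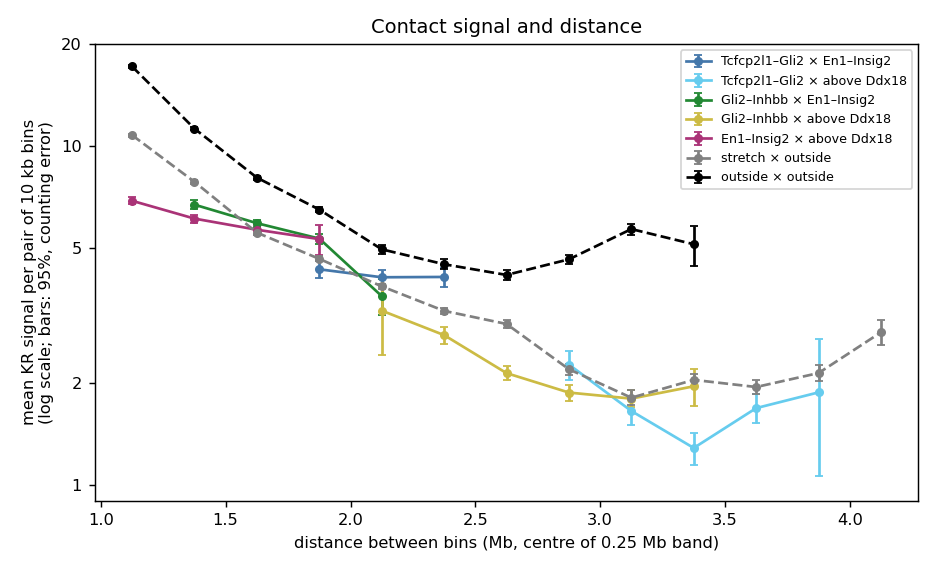
Mean KR signal per pair of 10 kb bins (logarithmic vertical axis) against distance in bands of 0.25 Mb, for the 5 stretch pairs (solid lines) and for pairs with 1 or both ends outside the stretches (dashed lines); bars are 95% intervals for counting error and bands with fewer than 20 pairs are not drawn. The line from En1–Insig2 to the stretch above Ddx18 falls from 6.90 to 5.32 where the line of pairs with both ends outside falls from 17.2 to 6.50.

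Within the stretches the contacts were not spread evenly. Blocks of 50 kb gave 441 block pairs with at least 10 member bin pairs, of which 268 had an interval wholly below 1 and 8 wholly above 1. Between En1–Insig2 and the stretch above Ddx18, 116 of 143 block pairs were below and 1 above. Between Tcfcp2l1–Gli2 and En1–Insig2, 7 of 33 were below and 5 above. Shortfalls thus extended over most blocks of the stretch pair with the lowest value. Of the 8 block pairs with an interval above 1, 5 joined Tcfcp2l1–Gli2 to En1–Insig2. Values above 1 whatever their interval numbered 61, of which 20 joined Gli2–Inhbb to En1–Insig2, 18 Tcfcp2l1–Gli2 to En1–Insig2, 11 Gli2–Inhbb to the stretch above Ddx18, 9 En1–Insig2 to that stretch and 3 Tcfcp2l1–Gli2 to it.

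The highest block pair of all joined the block 120590001 to 120640000, next to Tcfcp2l1, to the block 122960001 to 123010000 in the En1–Insig2 stretch, at an observed/expected value of 1.49 (1.24 to 1.75, 145 read pairs). The same block of the En1–Insig2 stretch was in the highest pair with the Gli2–Inhbb stretch, at 1.29 (1.13 to 1.45) from 261 read pairs with the block 121060001 to 121110000. That block overlaps the 5′ part of B230209K01Rik. The lowest values in these stretch pairs were 0.664 (0.505 to 0.823), between the blocks 120640001 to 120690000 and 122760001 to 122810000, and 0.619 (0.528 to 0.710), between the blocks 121260001 to 121310000 and 122560001 to 122610000.

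With the stretch above Ddx18, the highest block pairs did not stand clear of 1 for Tcfcp2l1–Gli2, at 1.24 (0.792 to 1.69, 30 read pairs), or for Gli2–Inhbb, at 1.28 (0.792 to 1.76, 28 read pairs). For En1–Insig2 the highest value was 1.40 (1.06 to 1.74), from 68 read pairs between the block 122560001 to 122610000 and the last 20 kb of the map. The lowest block pair of all, at 0.289 (0.158 to 0.419), joined the block 120960001 to 121010000 above Gli2 to the block 124030001 to 124080000, with 20 read pairs. Those for Tcfcp2l1–Gli2 and En1–Insig2 were 0.346 (0.186 to 0.507, 19 read pairs) and 0.416 (0.299 to 0.532, 56 read pairs).

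**Figure D4:**
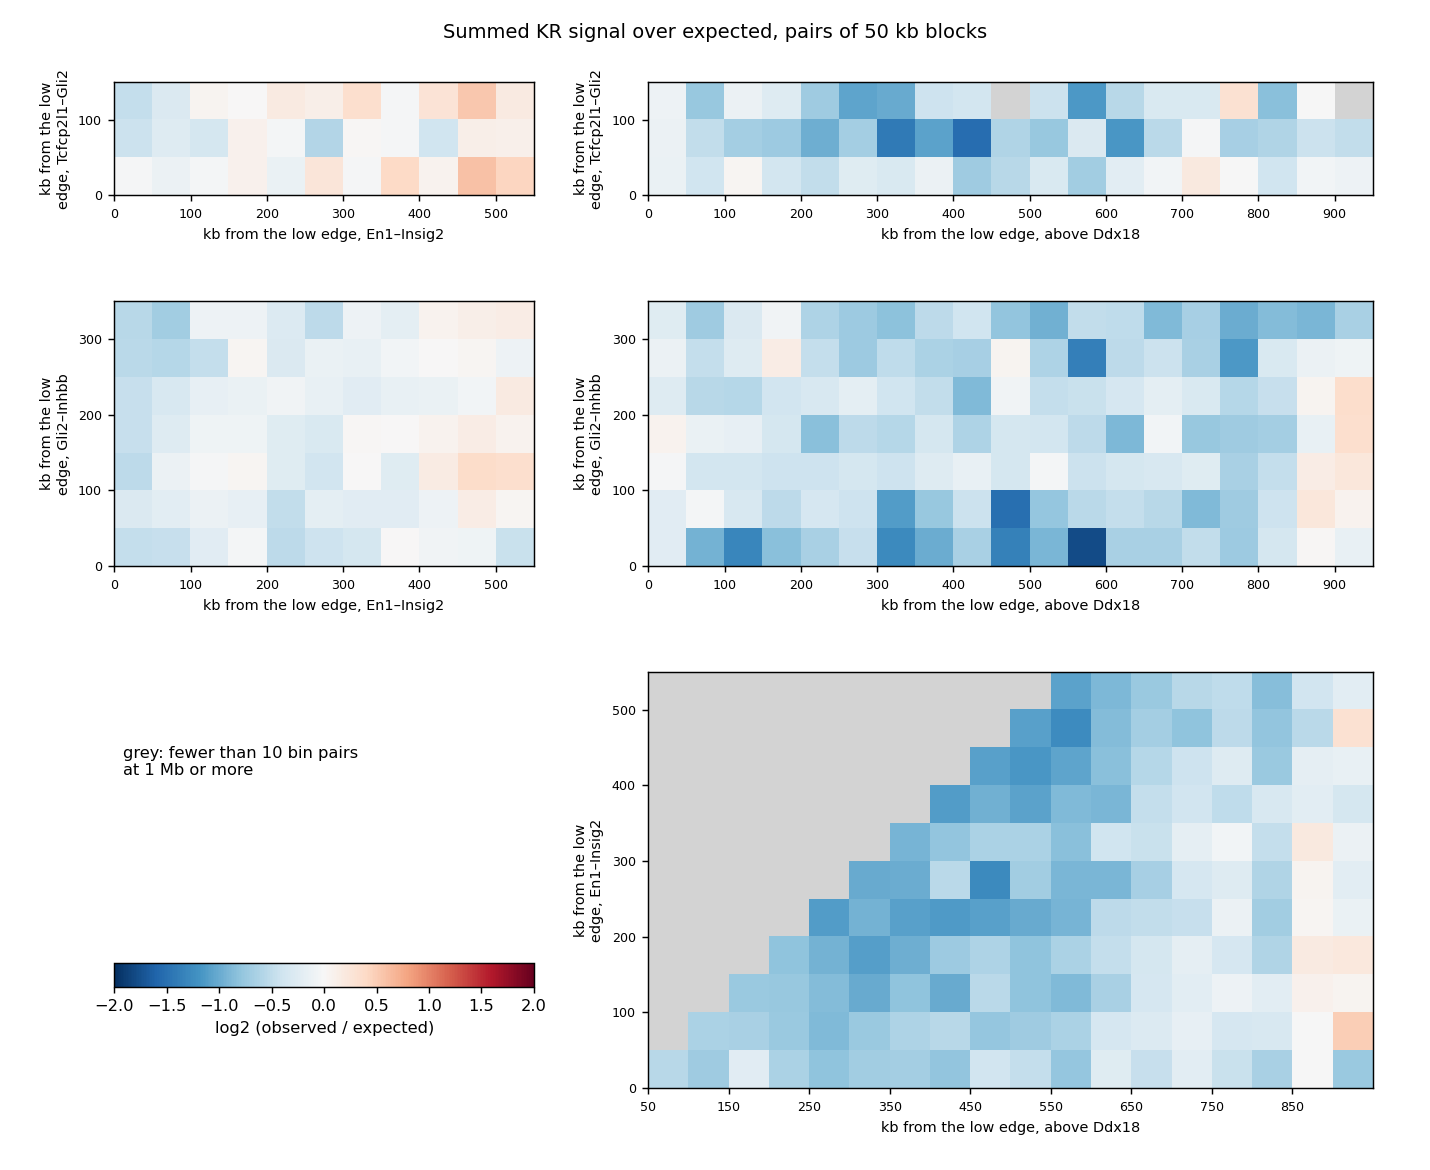
Summed KR signal over expected, as log2, for pairs of 50 kb blocks in the 5 stretch pairs; both axes give the distance from the low-coordinate edge of a stretch in kb, the last block of Tcfcp2l1–Gli2 and of the stretch above Ddx18 is shorter than drawn, and grey marks block pairs with fewer than 10 bin pairs. Blue (below expected) covers most of the panels with the stretch above Ddx18, and red (above expected) marks 61 of the 441 block pairs, of which 20 join Gli2–Inhbb and 18 join Tcfcp2l1–Gli2 to En1–Insig2.

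Along the En1–Insig2 stretch, contacts with the stretches below it rose towards the end far from En1, while those with the stretch above Ddx18 did not. In the block next to En1, 122510001 to 122560000, the observed/expected value was 0.824 (0.740 to 0.907) with Tcfcp2l1–Gli2, 0.719 (0.683 to 0.755) with Gli2–Inhbb and 0.696 (0.668 to 0.725) with the stretch above Ddx18. In the block 122960001 to 123010000 these values were 1.33 (1.19 to 1.47), 1.07 (1.01 to 1.13) and 0.579 (0.544 to 0.614). In the last block, 123010001 to 123060000, they were 1.19, 1.04 and 0.612. Position in the stretch and distance to the partner move together here, and the part of each cannot be told apart.

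The bins over B230209K01Rik were set beside the others after the block values had been seen, so their values are a description. In these 4 bins the observed/expected value was 1.37 (1.22 to 1.52) with Tcfcp2l1–Gli2, against 0.985 in the rest of the stretch. With Gli2–Inhbb it was 1.12 (1.05 to 1.18), against 0.873. With the stretch above Ddx18 it was 0.611 (0.572 to 0.649), against 0.647, so only values with stretches at lower coordinates were higher than elsewhere. With outside bins these 4 bins had 1.05, 1.19, 1.01 and 1.09, against 0.879 for the whole stretch. The bins past the gene, from 123020001 to the end of the stretch, had 1.26, 1.01, 1.06 and 0.892 with outside bins. Pairs of the 4 bins with Tcfcp2l1–Gli2 also lay only 2270 to 2420 kb apart, against 1800 to 2460 kb for the rest. The part of distance or position was not tested.

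Above Ddx18, the last blocks of the stretch met En1–Insig2 and Gli2–Inhbb more often than its middle did. With En1–Insig2 the value was lowest in the block 123730001 to 123780000, at 0.522 (0.483 to 0.560), and reached 0.946 (0.880 to 1.01) and 0.971 (0.886 to 1.06) in the last blocks of the map, 124330001 to 124380000 and 124380001 to 124400000. With Gli2–Inhbb the same last blocks had 0.945 (0.808 to 1.08) and 1.03 (0.848 to 1.21), and the block next to Ddx18, 123480001 to 123530000, had 0.905 (0.820 to 0.990). With Tcfcp2l1–Gli2 the highest value, 1.01 (0.825 to 1.20), was not at an edge but in the block 124180001 to 124230000, and the intervals were wide. The rise at the end of the map went with low coverage. The median total was 9224 read pairs in the 6 well-covered bins of the last 70 kb and 15656 in the rest of the stretch. It also went with distance, as the mean distance to En1–Insig2 was 1120 kb in the lowest block and 1572.5 and 1605 kb in the last blocks. The value with En1–Insig2 was already 0.633 in the block 124080001 to 124130000 and 0.804 in the block 124230001 to 124280000, before 0.671 in the next. The part of coverage, distance or position in the rise was not tested. Without the last 70 kb, the value between En1–Insig2 and the stretch above Ddx18 was 0.620, the others changed less, and the order of the stretch pairs was the same.

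**Figure D5:**
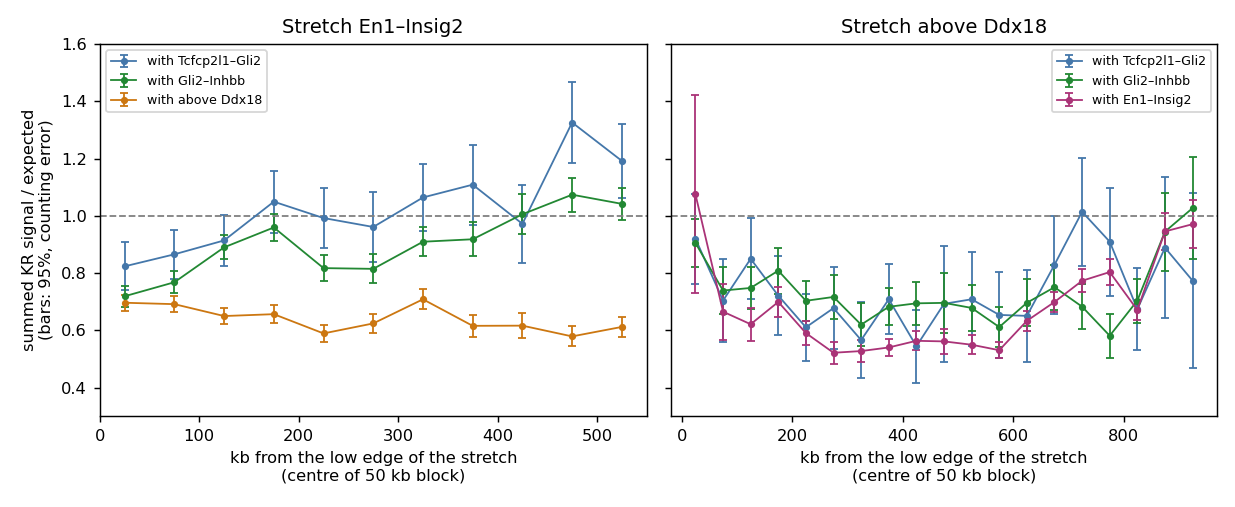
Summed KR signal over expected along the En1–Insig2 stretch (left) and along the stretch above Ddx18 (right), in blocks of 50 kb placed by their distance from the low-coordinate edge, with a line for each partner stretch; bars are 95% intervals for counting error. On the left the line with Tcfcp2l1–Gli2 rises from 0.824 to 1.33 and that with the stretch above Ddx18 stays between 0.579 and 0.709; on the right the line with En1–Insig2 is lowest at 0.522 and reaches 0.971 in the last block, and the first point of the line with En1–Insig2 rests on 3 bin pairs.

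Split by single bins, the same member pairs kept the order of the stretches, which is no separate evidence for that order. Of 189 well-covered bins, 170 had a summed value with an interval below 1 and 2 had one above 1. The median per bin was 0.906 in Tcfcp2l1–Gli2 (range 0.587 to 1.04), 0.845 in Gli2–Inhbb (0.618 to 1.11), 0.743 in En1–Insig2 (0.412 to 0.908) and 0.642 above Ddx18 (0.391 to 1.14). In the En1–Insig2 stretch all 55 bins had an interval below 1.

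In the Tcfcp2l1–Gli2 stretch the lowest bin was 120660001 to 120670000, at 0.587 (0.523 to 0.651) from 364 read pairs to the other stretches. It holds the exact motif match at chr1:120669068-120669097 shown above, and its total of 36987 read pairs was the highest of the stretch. The highest bins, 120700001 to 120710000 at 1.04 (0.943 to 1.14) and 120590001 to 120600000 at 1.03 (0.947 to 1.12), lay near either edge of the stretch and held no match. Both had intervals that include 1. The lowest bins of the other stretches held no match, even with 1 mismatch. The second highest bin above Ddx18 held 2 matches with 1 mismatch.

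In the Gli2–Inhbb stretch the highest and the lowest bins lay side by side. The value was 1.11 (1.02 to 1.20, 692 read pairs) in the bin 121040001 to 121050000 and 0.618 (0.557 to 0.679, 439 read pairs) in the bin 121030001 to 121040000. Their totals were 26571 and 29906 read pairs. The second highest was 121070001 to 121080000, at 1.01 (0.938 to 1.09).

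The En1–Insig2 stretch had its highest bin just above B230209K01Rik, at 123020001 to 123030000, with 937 read pairs and 0.908 (0.847 to 0.969). Its second highest, 122900001 to 122910000, had 0.896 (0.802 to 0.990) and lay next to its lowest, 122890001 to 122900000, with 130 read pairs and 0.412 (0.338 to 0.486). That lowest bin had a total of only 6844 read pairs. Above Ddx18 the lowest bin, 123980001 to 123990000, also had a low total, 7964 read pairs, with a value of 0.391 (0.325 to 0.457), and the highest bins were the last of the map, 124390001 to 124400000, at 1.14 (1.03 to 1.26), and 124330001 to 124340000, at 1.12 (0.978 to 1.26).

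Base composition was lowest in the stretch with the lowest values, but its order was not that of the stretches throughout. The median GC content per bin was 47.0% in Tcfcp2l1–Gli2, 48.0% in Gli2–Inhbb, 43.7% in En1–Insig2 and 40.3% above Ddx18, against 45.9% outside. Over all 189 bins, GC content and the value with the other stretches had a Pearson correlation of 0.346, but within the stretches it was −0.335, −0.190, 0.0252 and −0.0438 in chromosomal order, over 13, 35, 55 and 86 bins that share 1 library. The median number of DpnII sites, GATC, was 22 to 26 per bin in the stretches and 25 outside.

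Few single bin pairs stood above expected. A pair was called above expected when it held 10 or more read pairs and its observed/expected value exceeded 1.5 even at the lower end of its exact Poisson 95% interval. Of all 51379 far pairs 1.34% were called, but only 7 of 9945 members (0.0704%, Wilson 95% interval 0.0341 to 0.145%), 121 of 27718 pairs with 1 end outside (0.437%) and 563 of 13716 with both ends outside (4.10%). The minimum count matters here, since none of the pairs between Tcfcp2l1–Gli2 and the stretch above Ddx18 had 10 read pairs and only 11 between Gli2–Inhbb and that stretch had. Among pairs with at least 10 read pairs, 0.530% of 1321 members were called (0.257 to 1.09%), against 5.72% of all 12072.

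Other limits gave 14 members at 5 or more read pairs (1.6% of all far pairs), 0 at 20 or more (0.699%), and 1 where the lower end had to exceed 2 (0.319%); the member maximum of 28 read pairs leaves few pairs to call at the higher minimum.

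The 7 called members fell into 3 stretch pairs, 5 of them between Tcfcp2l1–Gli2 and En1–Insig2. These 5 made up 0.699% of the 715 bin pairs of that stretch pair, against 1.34% of all far pairs. Among its 88 pairs with at least 10 read pairs they made up 5.68% (2.45 to 12.6%), near the 5.72% of all far pairs. The strongest called pair joined 120620001 to 120630000 and 122990001 to 123000000, 2370 kb apart. It had 18 read pairs where 5.26 were expected, a value of 3.42 (2.03 to 5.40). These ends lie in the bin of the motif match at chr1:120627718-120627747 and within B230209K01Rik. The bin 122990001 to 123000000 also formed the only called pair with Gli2–Inhbb, the bin 121140001 to 121150000, where 18 read pairs gave 2.89 (1.71 to 4.56) times the expected number. No called pair had all its read pairs in 1 pair of 5 kb bins, and in these pairs at most 7 and 10 of the 18 did.

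The called pair between En1–Insig2 and the stretch above Ddx18 joined 122980001 to 122990000 to the last bin of the map, 124390001 to 124400000, with 13 read pairs where 4.26 were expected, a value of 3.05 (1.63 to 5.22). The strongest pair between Gli2–Inhbb and the stretch above Ddx18 had 10 read pairs where 3.69 were expected, a value of 2.71 (1.30 to 4.98), and was not called. In all, 4 of the 7 called pairs had an end in a bin over B230209K01Rik. These bins take part in 3.48% of members, and in 100 of the 1321 members with the 10 read pairs that a call needs. This overlap was seen in the data and not fixed in advance. Of the 12 bins in called pairs, 0 held an exact motif match and 2 a match with 1 mismatch, a share near that of all bins.

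Members below expected were looked for with a rule added after the data were seen, an upper bound of observed/expected under 0.667. Of all far pairs 0.882% met it, and 178 members (1.79%, Wilson 95% interval 1.55 to 2.07%). Of these, 160 lay between En1–Insig2 and the stretch above Ddx18 (5.04% of its pairs, 4.33 to 5.85%), 16 between Gli2–Inhbb and En1–Insig2 (0.831%) and 1 each between Tcfcp2l1–Gli2 and En1–Insig2 and between Gli2–Inhbb and the stretch above Ddx18. At the low counts beyond 2 Mb such a shortfall in a single pair was hardly detectable, so the small numbers there do not show its absence.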

How the data were processed

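Capture Hi-C contacts were measured in 2 wild-type limb samples, both titled as replicate 2, which the authors merged into 1 map. Per the deposited file names, reads were processed with HiCUP at a mapping quality minimum of 30; the submitters' processing notes list Bowtie2 2.3.4.1, Juicer 1.7.6, SAMtools and mm9. The authors deposited raw counts of read pairs per bin pair, without normalization, and a balanced contact signal named KR, read here as Knight-Ruiz balancing, with a constant row sum of 22062.3 at 10 kb. Balancing multiplies up poorly covered bins and was done separately per bin size.

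Observed/expected was the summed KR signal over the summed mean KR signal at the same distances, from well-covered bins only. Missing bin pairs counted as 0. Intervals came from the Poisson error of the raw counts weighted by the balancing factors, and for single pairs from exact Poisson bounds on counts against expected signal times both balancing factors. Read pairs carry no molecular identifiers, so intervals cover counting error only; with 1 pooled map no test between groups was possible. Named regions were, for each stretch pair, the bin pair whose lower bound was highest, together with the top and bottom 50 kb block pairs, and for each stretch its 2 highest and its lowest bin. The members and rules were chosen with earlier results of these data known, and the form of the CTCF motif after a stricter form gave few matches. Genes and sequence came from GENCODE M1 and NCBIM37, whose chromosome 1 of 197195432 bp is that of mm9. Python 3.11.15, numpy 2.4.6, scipy 1.17.1 and pandas 2.3.3 were used.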

Additional observations from a re-analysis of the deposited data

How the results depend on the processing

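The intervals cover counting error only, 1 pooled map gives no spread between embryos, and beyond 2 Mb a typical member pair held 1 to 5 read pairs. No paired analysis was possible because both samples were merged into 1 map; leaving out a sample was not run for the same reason, and both samples carry the same replicate number. In the lists below P is Tcfcp2l1–Gli2 with En1–Insig2, Q is Tcfcp2l1–Gli2 with the stretch above Ddx18, R is Gli2–Inhbb with En1–Insig2, S is Gli2–Inhbb with the stretch above Ddx18 and T is En1–Insig2 with that stretch; the ratio is that of members to pairs outside.
With the expected signal from all bins, Q to T were 0.580, 0.936, 0.693 and 0.688, all members 0.753 and the ratio 0.541. With members left out of the expected signal Q to T were 0.660, 0.851, 0.658 and 0.597, and all members 0.683. With medians per distance P to T were 1.10, 0.974, 0.962, 0.890 and 0.711, all members 0.823 and the ratio 0.562. On raw read pairs over expected read pairs, all members were 0.742 and the ratio 0.571. On raw counts with distance alone, P was 1.16, R reversed to 1.11, S was 0.707 and T 0.557. At 25 kb P to R were 0.951, 0.688 and 0.903, and all members 0.723. With bins under 50% of the median left out, S was 0.704 and T 0.627. With 50 kb trimmed at each stretch edge, P to R were 0.855, 0.602 and 0.914, T 0.620, all members 0.697 and the ratio 0.527. P and Q then rest on 120640001 to 120670000 alone of the Tcfcp2l1–Gli2 stretch. At 1.5 Mb or more, R was 0.926, T 0.851, all members 0.844 and the ratio 0.650.
Chosen after seeing the data, leaving out the last 70 kb gave 0.620 for T, 0.721 for all members and a ratio of 0.545. An expected signal from pairs of outside bins, also chosen then, gave for P to T 0.824, 0.384, 0.720, 0.458 and 0.487, with 0.545 for all members and for the ratio. Members called were 0.141% at 5 or more read pairs (1.6% of all far pairs), 0% at 20 or more (0.699%) and 0.0101% with a bound above 2 (0.319%). With 5 kb bins every stretch pair kept its value within the counting interval. The cause of these shifts was not tested.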
